A study of Mus musculus with 45 samples.

Results

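Organoids grown from R1 cells, a wild-type mouse embryonic stem cell line, were compared 18 h and 8 h after the start of retinoic acid (RA) treatment, and every gene with enough counts was tested between these times. The 6 libraries, 3 at each time, were chosen by their labels from the 45 libraries of the series, and 16442 of the 54532 genes in the count table were tested. All organoids were grown clonally in Matrigel in N2B27, a serum-free medium that allows neural differentiation. At day 2 the medium was replaced by N2B27 with 250 nM all-trans RA (the RA groups) or by N2B27 alone (the untreated groups), so that no genotype or further agent separates the groups. The protocol in the sample labels writes the dose in µM and lists no 8 h collection, and the dose of the study's methods and the times of the sample titles are used here. Poly(A) RNA of many organoids went into each library, and all libraries come from this 1 cell line, so that differences between lines are not covered. The untreated 8 h and untreated 18 h groups, with 3 libraries each, give the change over the same 10 h without RA. Counts per library lay between 19087115 and 39688686 in these 12 libraries, and a level is given below as CPM, the counts of a gene relative to the library total after TMM scaling. In bulk RNA, fewer cells of a type and less RNA per cell cannot be told apart.

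Neural and pluripotency transcripts were present in the same libraries. Sox2, a transcription factor shared by stem cells and neural progenitors, was at 247, 250.0 and 249 CPM in the RA 8 h libraries and 275, 297 and 288 CPM in the RA 18 h libraries. Pax6, a regulator of neural progenitors, was at 29.4, 34.3 and 31.4 CPM and then 60.3, 56.5 and 52.8 CPM. Sox1, a marker of neural cells that stem cells lack, was at 3.48, 3.63 and 5.53 CPM and then 29.9, 27.99 and 30.01 CPM. Pou5f1, the Oct4 gene of pluripotent cells, was at 581, 567 and 821 CPM at RA 8 h and 291, 317 and 312 CPM at RA 18 h. In each library of both times it stood above these neural genes. These levels are not scaled for transcript length.

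RA 8 h replicate 3 lay apart from its replicates before any comparison between times. Of the 16442 genes tested, 21 differed over 2-fold between RA 8 h replicates 1 and 2, against 980 and 983 between replicate 3 and each of them. For this count 1 was added to each CPM, so that differences below 1 CPM are not counted. The 9 other replicate pairs of the 12 libraries had 2 to 22 such genes. Its 4 Y chromosome genes had a mean of 3.65 CPM, against 78.6 and 89.5 CPM in RA 8 h replicates 1 and 2, 51.1 to 59.5 CPM at RA 18 h and 74.0 to 80.4 CPM in the untreated 8 h libraries. With this library included, none of the 4 was called between RA 8 h and RA 18 h by edgeR or DESeq2, and none passed an unadjusted p under 0.05. Their median log2 fold change was -0.0485, and -0.59 without this library, where edgeR called 0 of them. In untreated organoids 1 of the 4 was higher and 3 lower at 18 h at an unadjusted p under 0.05. Along the axis from RA 8 h replicates 1 and 2 (set at 0) to RA 18 h (set at 1), the library lay at 0.025, beside 0.012 and -0.012 for replicates 1 and 2. Its values are given one by one, and fold changes and counts of calls are given with and without it, where replicate 3 without further words means this library. The part of this library's difference in the results was not tested.

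RA is a signal made from vitamin A. Inside the cell it is carried to its receptors by Crabp2, and the receptors bind DNA as pairs of an RA receptor (Rara, Rarb, Rarg) with a retinoid X receptor (Rxra, Rxrb, Rxrg) at direct repeats of a short half-site. Genes with such a repeat near their start, among them Rarb and the RA-degrading enzyme Cyp26a1, are known to respond within hours, and later genes follow through transcription factors made in the first response. In the embryo RA gives the hindbrain and spinal cord their posterior identity through the Hox genes, and it ends the pluripotent state of stem cells.

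The 100 bases before the start of Rarb and Cyp26a1 are shown because both genes were far above the untreated level by 8 h and neither was called from RA 8 h to RA 18 h, and because these were the only 2 promoters of the listed RA pathway, Hox and cofactor genes and of the genes named by the rule for large changes with a row in the promoter table that held a repeat. Sequences are from RefSeq on GRCm38.p6 and are read along the strand of the gene. A half-site was AGGTCA or its variant AGTTCA. Forms that begin with G were also taken, which are GGGTCA for the former and GGTTCA for the latter. Capitals mark 2 half-sites with 5 bases between them, which in Rarb lie on the strand of the gene and in Cyp26a1 on the opposite strand.
Rarb, chr14:16575477-16575576, minus strand: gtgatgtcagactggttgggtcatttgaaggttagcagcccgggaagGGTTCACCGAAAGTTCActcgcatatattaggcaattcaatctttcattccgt
Cyp26a1, chr19:37697708-37697807, plus strand: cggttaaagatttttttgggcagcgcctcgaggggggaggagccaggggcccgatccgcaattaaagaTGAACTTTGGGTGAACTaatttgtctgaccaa
The search covered both strands from 250 bases before to 50 after each start, with 1, 2 or 5 bases between the half-sites, and each of these promoters held 1 match. A match was found in 193 of 32851 promoters in the table (0.588%), and in 56 of 14878 promoters of tested genes (0.376%). None of the 267 promoters found for 204 genes called up from RA 8 h to RA 18 h held a match, nor did any of the 52 promoters of 43 genes called down. These letters within this window are a description only.

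Expression changed at many genes from RA 8 h to RA 18 h, and rises were more numerous than falls. With all 6 libraries, 296 of 16442 genes rose (1.8%) and 55 fell (0.335%), where a call needed a log2 fold change beyond 1 in either direction at an adjusted p under 0.01. Without RA 8 h replicate 3, 727 of 16949 genes rose (4.29%) and 213 fell (1.26%). Called, rose and fell refer to edgeR here and below, unless DESeq2 is named. DESeq2 called 690 rises and 138 falls with all 6 libraries, among 31031 genes with any count, of which edgeR tested 16442. DESeq2 counts for the gene lists below are to be read beside these and not beside the edgeR shares. At an unadjusted p under 0.05 in edgeR, 3234 of 16442 genes were higher and 2881 lower at RA 18 h. In untreated organoids 2899 of 15823 were higher and 2817 lower at 18 h. Such counts for the gene lists below are to be read beside these. Of the genes called with all 6 libraries, 277 rises and 50 falls were also called without RA 8 h replicate 3. The calls rest on all of the other libraries as long as RA 8 h replicate 3 is in the fit. Leaving out RA 8 h replicate 1 left 9 rises and 2 falls, leaving out RA 8 h replicate 2 left 7 rises and 0 falls, and leaving out RA 18 h replicate 1 left 3 rises and 0 falls. Without RA 18 h replicate 2 or 3 there were 0 calls in either direction by edgeR, with 2485 and 2324 genes higher and 1988 and 2134 lower at an unadjusted p under 0.05. Of the genes whose values were examined one by one, 22 were called only without replicate 3. DESeq2 called 16 of these with all 6 libraries, and it did not call T, Otx2, Dnmt3b, Pou3f1, Pim2 and Meox1. A further 6 (Zfp703, Pou5f1, Tet1, Fzd2, Pfkfb3 and Slc16a3) were called only with replicate 3, since their fold fell short without it, and DESeq2 called all 6 with it. Of the genes called up, 97.6% were protein-coding, beside 86.3% of the genes tested. The strand setting of the counting and its handling of reads with several matches are not given in the sources used here, and 31 of the 127 genes whose values were examined one by one overlap an annotated gene on the other strand, among them Rarb, Pou5f1, Tdh, Dnmt3a, Zfp703, Otx2, Enpp2, Krt8 and Bcl11a, so that reads of such pairs may be shared.

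Cyp26a1 and Rarb, known direct targets of RA, were not called from RA 8 h to RA 18 h. Cyp26a1 was at 265, 249 and 182 CPM at RA 8 h and 257, 288 and 284 CPM at RA 18 h, and at 5.16 to 5.82 CPM in untreated organoids at 8 h. Its log2 fold change over the 10 h with RA was 0.25 ± 0.13 (adjusted p = 0.21), and 0.11 ± 0.06 without RA 8 h replicate 3. Rarb was at 34.9, 35.6 and 51.1 CPM and then 42.8, 44.2 and 46.4 CPM, with a log2 fold change of 0.12 ± 0.16 (adjusted p = 0.61, and 0.34 without replicate 3). Its level without RA at 8 h was 0.962 to 1.54 CPM. Rarb overlapped between the times through replicate 3 alone, and without it the adjusted p was 0.0017, past the threshold on p but not on fold. Meis2, a cofactor of Hox proteins, was at 184, 191 and 94.4 CPM and 179, 176 and 179.8 CPM, and its log2 fold change of 0.18 ± 0.23 became -0.07 ± 0.05 without replicate 3, where the groups did not overlap. A missed threshold does not show that their levels were equal.

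**Figure D1:**
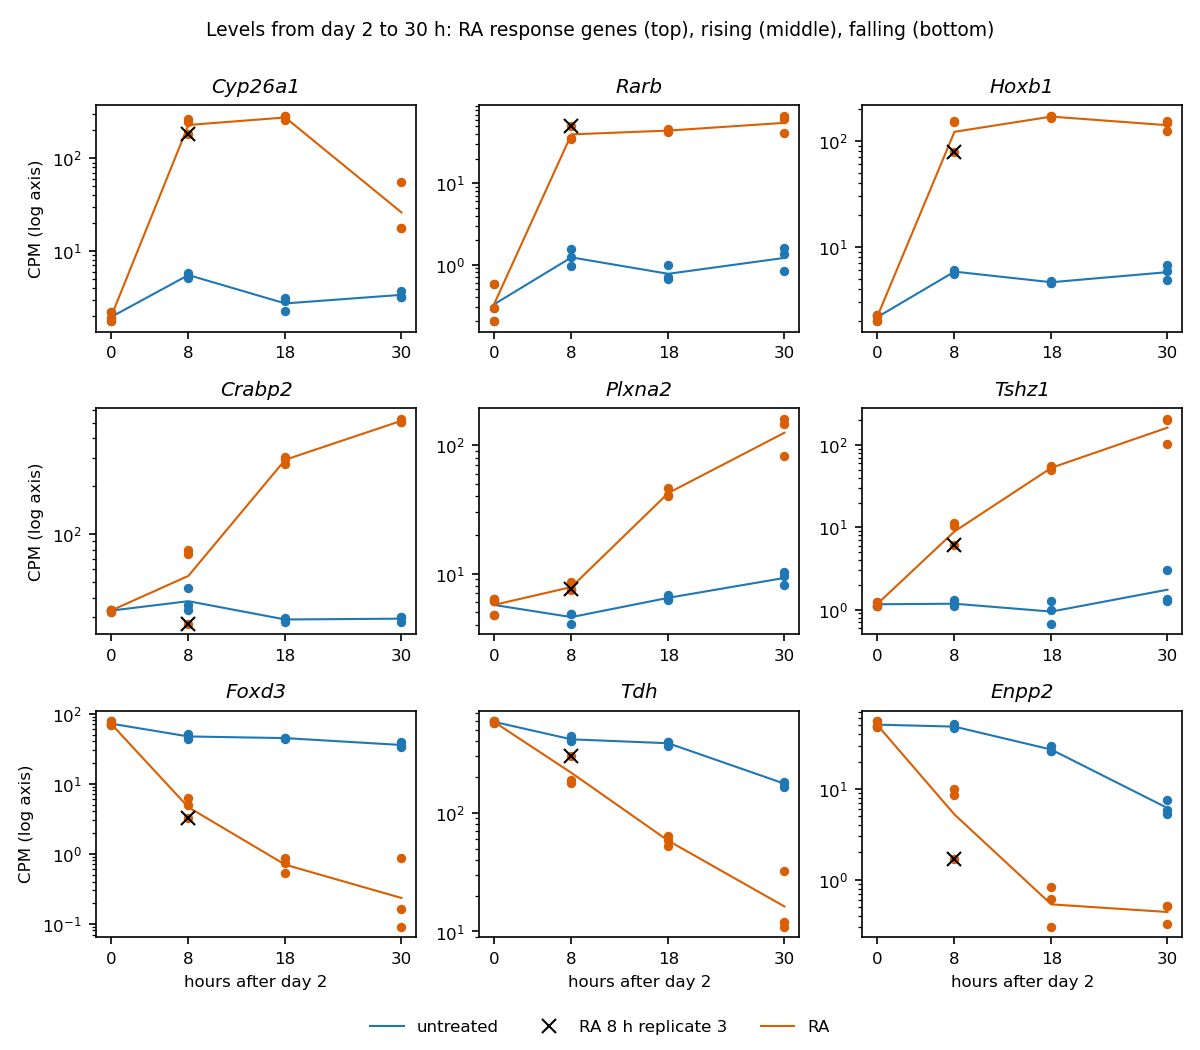
Levels of 9 genes in CPM on a log axis against hours after day 2, with 1 point per library, a line through the geometric mean of 3 libraries for untreated (blue) and RA-treated (orange) organoids, and a cross on RA 8 h replicate 3. Cyp26a1, Rarb and Hoxb1 are above the untreated libraries by 8 h with RA and were not called from 8 h to 18 h, Crabp2, Plxna2 and Tshz1 rise between 8 h and 18 h, and Foxd3, Tdh and Enpp2 are lower at 18 h. The cross of Crabp2 lies below the untreated libraries.

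Among the genes that make, carry and break down RA, Crabp2, which hands RA to its receptors, rose. It was at 79.7, 75.4 and 27.2 CPM in the RA 8 h libraries and 307, 277 and 298 CPM in the RA 18 h libraries, with a log2 fold change of 2.27 ± 0.35 (adjusted p = 0.0082). Replicate 3 lay below the untreated 8 h libraries at 35.7, 33.2 and 46.05 CPM, and without it the log2 fold change was 1.92 ± 0.07 (adjusted p = 1.0e-08). Stra6, which takes up retinol bound to its carrier, was at 21.8, 21.7 and 7.96 CPM and then 39.2, 44.8 and 47.5 CPM, and it was called by edgeR only without replicate 3, at 1.02 ± 0.08 (adjusted p = 3.4e-06). Dhrs3, an enzyme that turns retinal back into retinol, was at 29.7, 30.2 and 18.8 CPM and 41.03, 47.7 and 44.8 CPM, a log2 fold change of 0.75 ± 0.17, and 0.57 ± 0.08 without replicate 3. Cyp26b1, a second RA-degrading enzyme, was at 24.5, 19.4 and 23.6 CPM and 16.6, 19.2 and 16.8 CPM (-0.37 ± 0.12, and -0.32 without replicate 3). In all, 1 of 12 tested genes of this list rose and 0 fell, with a median log2 fold change of 0.53, beside -0.0005 over all genes. Without replicate 3, 2 of 13 rose and 1 fell, with a median of 0.32, beside 0.013 over all genes. DESeq2 called 2 up and 0 down with all libraries.

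The RA receptor genes moved in different directions. Rxra rose from 15.6, 12.96 and 11.1 CPM to 30.1, 27.8 and 29.7 CPM, a log2 fold change of 1.14 ± 0.13 (adjusted p = 0.0038, and 1.04 without replicate 3). Rarg was at 238, 209 and 274 CPM and then 131, 153 and 154 CPM, which passed the adjusted p but not the fold threshold (-0.73 ± 0.12 (adjusted p = 0.0094, and -0.61 without replicate 3)). Rxrg was at 8.97, 7.30 and 12.5 CPM and 3.86, 2.97 and 5.18 CPM, called down by edgeR only without replicate 3 (-1.02 ± 0.20 (adjusted p = 0.0013)). Stra8, an RA-induced gene known from germ cells entering meiosis, was at 268, 262 and 118 CPM and 515, 509.8 and 527 CPM, and at 4.43 to 7.55 CPM in untreated organoids at 18 h. Its log2 fold change of 1.26 ± 0.28 (adjusted p = 0.021) missed the adjusted p with all libraries, and 0.97 ± 0.05 without replicate 3 missed the fold threshold, while DESeq2 called it up with all libraries. Nrip1, a corepressor that RA receptors induce, was at 138, 154 and 175 CPM and 115, 114 and 119.9 CPM (-0.43 ± 0.11, and -0.33 without replicate 3). Of 12 genes in this list, edgeR called 1 up and 0 down with all libraries (median -0.30) and 1 up and 1 down without replicate 3 (median -0.27). DESeq2 called 2 up and 1 down with all libraries.

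Hox genes, which set position along the body axis, were on balance higher at RA 18 h, and the change differed along the Hoxb cluster. Of 24 tested Hox genes, 4 rose (Hoxd3, Hoxc4, Hoxc5 and Hoxb7) and 0 fell, with a median log2 fold change of 0.68. Without replicate 3, 8 of 24 rose and 1 fell, with a median of 0.66, and DESeq2 called 7 up and 0 down with all libraries. Over the same 10 h without RA, 0 of 13 tested Hox genes were called by edgeR in either direction, with 0 higher and 3 lower at an unadjusted p under 0.05, and the median was -0.27. Within the Hoxb cluster, the log2 fold changes from Hoxb1 to Hoxb9 were 0.41 ± 0.22, 0.45 ± 0.28, 0.95 ± 0.15, 0.66 ± 0.10, 0.70 ± 0.12, 1.32 ± 0.26, 1.56 ± 0.24, 2.04 ± 0.39 and 2.23 ± 0.38. With all libraries they increased from Hoxb4 to Hoxb9 at each step, with Hoxb3 above Hoxb4 and Hoxb5, and intervals of 1 SE overlapped between neighbours from Hoxb6 to Hoxb9 but not between Hoxb5 and Hoxb6. Without replicate 3 the values were 0.17, 0.15, 0.80, 0.59, 0.58, 1.06, 1.35, 1.67 and 1.87. The 4 genes from Hoxb6 to Hoxb9 were called by edgeR without replicate 3, and Hoxb7 alone with it, while DESeq2 called these 4 with it.

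Library values show where these differences lie. Hoxb1 was at 149.8, 152 and 78.8 CPM at RA 8 h and 165, 172 and 171 CPM at RA 18 h, and at 5.60 to 6.11 CPM in untreated organoids at 8 h. Hoxb8 was at 14.1, 14.8 and 4.14 CPM and then 45.7, 44.8 and 46.9 CPM, and at 1.14 to 1.30 CPM without RA at 8 h. Hoxb9 was at 9.10, 6.12 and 2.32 CPM and then 27.9, 27.6 and 27.9 CPM. So Hoxb1 in replicates 1 and 2 was close to its later level, Hoxb8 and Hoxb9 were well below theirs in all 3 RA 8 h libraries, and replicate 3 was the lowest for each of these genes. Hoxb2 and Hoxb3 share their position with the antisense gene Hoxb3os and Hoxb5 with Hoxb5os.

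**Figure D2:**
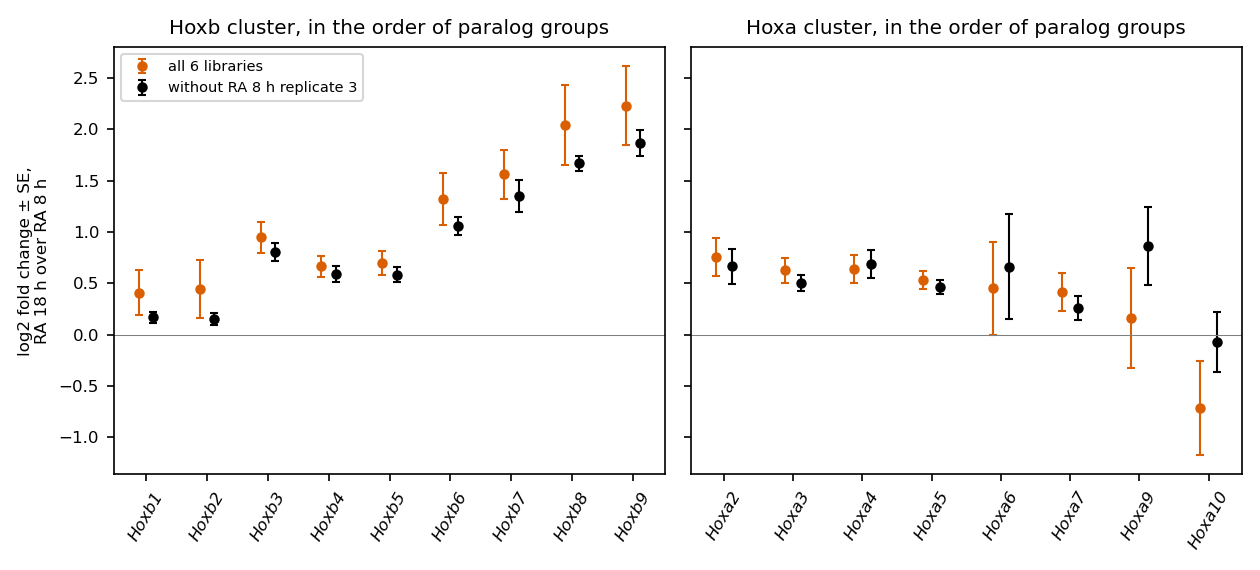
Log2 fold change with its SE, RA 18 h over RA 8 h, for tested genes of the Hoxb (left) and Hoxa (right) clusters in the order of their paralog groups, with all 6 libraries (orange) and without RA 8 h replicate 3 (black). Hoxb values go from 0.41 at Hoxb1 to 2.23 at Hoxb9, while Hoxa2 to Hoxa7 lie between 0.42 and 0.76.

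The Hoxa cluster had no such order. Hoxa2, Hoxa3, Hoxa4, Hoxa5, Hoxa6 and Hoxa7 had log2 fold changes of 0.76, 0.63, 0.64, 0.53, 0.45 and 0.42, or 0.67, 0.50, 0.69, 0.46, 0.66 and 0.26 without replicate 3, and none of them was called by edgeR in either fit. Hoxa9 and Hoxa10 were at 0.503, 0.544 and 1.55 CPM and 1.09, 1.68 and 3.70 CPM in the RA 8 h libraries, with replicate 3 the highest for both, and their log2 fold changes of 0.16 ± 0.49 and -0.71 ± 0.46 became 0.86 ± 0.38 and -0.07 ± 0.29 without it. Genes of the Hoxc and Hoxd clusters started close to 0 instead. Hoxc4 rose from 1.22, 0.680 and 0.497 CPM to 7.03, 4.82 and 5.96 CPM (2.86 ± 0.33 (adjusted p = 0.0041, and 2.63 without replicate 3)), and Hoxc5, which overlaps Hoxc10 on the same strand, from 0.252, 0.0453 and 0.111 CPM to 3.26, 3.96 and 3.09 CPM (4.56 ± 0.43 (adjusted p = 0.0031, and 4.45 without replicate 3)). Hoxd3 was listed at 0, 0 and 0.0553 CPM and then 0.825, 0.495 and 0.609 CPM, and it too was called up. Its position overlaps other annotated genes on both strands. At RA 30 h the mean of Hoxc5 was 11.6 ± 4.30 CPM (SD, n = 3) and that of Hoxd3 4.44 ± 0.778 CPM, while untreated organoids at 30 h had 0.0669 ± 0.0327 CPM and 0.0511 ± 0.0885 CPM.

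Among cofactors of the Hox proteins, Meis1, Meis3 and Pknox2 were called by edgeR only without RA 8 h replicate 3, and by DESeq2 with all libraries. Meis1 was at 11.3, 13.2 and 3.26 CPM at RA 8 h and 32.6, 30.8 and 35.1 CPM at RA 18 h, with 0.812 to 1.28 CPM in untreated organoids at 18 h. Its log2 fold change was 1.81 ± 0.41 (adjusted p = 0.023), and 1.43 ± 0.10 (adjusted p = 8.0e-07) without replicate 3. Pknox2 was at 11.5, 9.24 and 2.87 CPM and 23.1, 22.7 and 24.4 CPM (1.17 ± 0.10 (adjusted p = 4.4e-06) without replicate 3), and Meis3 at 3.56, 4.35 and 1.88 CPM and 9.33, 7.34 and 7.87 CPM (1.05 ± 0.16 (adjusted p = 3.3e-04)). Of 11 genes in this list, 0 were called by edgeR with all libraries, with 3 higher and 2 lower at an unadjusted p under 0.05 and 3 called up by DESeq2. Without replicate 3, 3 rose and 0 fell.

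In the list of hindbrain regulators 3 genes rose, and in the list of posterior axis genes Cdx1 alone. Zfp703, a zinc finger gene induced by RA, rose from 109, 101 and 90.8 CPM to 194, 204 and 223 CPM (1.04 ± 0.08 (adjusted p = 0.0025)), against 0.993 to 1.90 CPM in untreated organoids at 18 h. Without replicate 3 its value of 0.98 ± 0.07 fell short of the fold threshold. Irx2 rose from 4.11, 3.31 and 2.49 CPM to 8.94, 9.36 and 9.44 CPM and Nr2f1 from 0.335, 0.362 and 0.332 CPM to 2.82, 1.98 and 1.83 CPM. Cdx1, a homeobox gene that acts on posterior Hox genes, rose from 16.9, 14.96 and 12.05 CPM to 33.6, 35.6 and 40.97 CPM (1.32 ± 0.13 (adjusted p = 0.0033, and 1.21 without replicate 3)). Otx2, the regulator of forebrain and midbrain, was at 31.4, 29.05 and 20.9 CPM at RA 8 h and 10.7, 17.6 and 14.9 CPM at RA 18 h, with 233 to 264 CPM in untreated organoids at 18 h. EdgeR called it down only without replicate 3 (-1.06 ± 0.14 (adjusted p = 1.1e-04)). In the hindbrain list 3 of 14 genes rose and 0 fell (median 0.67), in the posterior axis list 1 of 15 rose and 0 fell (median 0.39), and in the forebrain and midbrain list 0 of 16 were called by edgeR (median 0.21), with 2 higher and 1 lower at an unadjusted p under 0.05 and 2 called up by DESeq2. Without replicate 3 the counts up and down were 3 and 0, 1 and 1, and 2 and 1 in these lists. Their medians were then 0.70, 0.22 and 0.12. Over all genes the shares called up and down by edgeR were 1.8% and 0.335% with all libraries, and 4.29% and 1.26% without replicate 3. DESeq2 called 5 up and 0 down in the hindbrain list and 1 up and 0 down in the posterior axis list. Over all genes it called 690 up and 138 down, more than edgeR.

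Sox1 and 3 other neural progenitor genes rose, and Sox1 and Zfp521 also rose without RA. Sox1, an early marker of the neuroepithelium, was at 3.48, 3.63 and 5.53 CPM in the RA 8 h libraries and 29.9, 27.99 and 30.01 CPM in the RA 18 h libraries, a log2 fold change of 2.80 ± 0.19 (adjusted p = 0.0019, and 3.05 without replicate 3). In untreated organoids Sox1 went from 1.15, 1.94 and 1.92 CPM to 5.05, 4.99 and 5.98 CPM and was called up as well (1.65 ± 0.19 (adjusted p = 6.2e-05)). Zfp521, which promotes neural fate in stem cells, rose with RA (1.78 ± 0.21, and 1.61 without replicate 3) and without (1.00 ± 0.17). Nes, the intermediate filament nestin, rose from 33.5, 32.1 and 45.6 CPM to 77.9, 86.3 and 84.2 CPM (1.15 ± 0.15 (adjusted p = 0.0049, and 1.34 without replicate 3)), and Hes1, a Notch target, from 10.8, 11.5 and 12.7 CPM to 22.5, 23.4 and 24.5 CPM (1.00 ± 0.11 (adjusted p = 0.0036, and 1.08 without replicate 3)). For both, the untreated change of 0.84 ± 0.07 and 0.94 ± 0.09 fell short of the fold threshold. Of 24 neural progenitor genes, 4 rose and 0 fell, with a median of 0.60, and 2 rose and 1 fell in the untreated organoids, with a median of 0.21. Without replicate 3, Hes5 and Sox6 were added to the genes edgeR called up, and the median was 0.44. DESeq2 called 5 up and 0 down with all libraries.

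Markers of later neurons did not move as 1 group. Lhx1, a LIM homeobox gene of spinal interneurons, rose from 3.27, 3.26 and 0.774 CPM to 15.8, 14.2 and 14.8 CPM (2.59 ± 0.41 (adjusted p = 0.0087, and 2.20 without replicate 3)), against 0.213 to 0.454 CPM without RA at 18 h. Mnx1, a motor neuron gene, was called up by edgeR only without replicate 3 (1.14 ± 0.20), while Neurod1, which drives neuron formation, was called down by edgeR only without it (-1.54 ± 0.14). Neurod1 was at 21.8, 27.2 and 9.23 CPM and 9.73, 6.76 and 8.74 CPM, with groups that overlapped through replicate 3. Olig3, a regulator of the dorsal neural tube, was at 39.7, 39.3 and 11.9 CPM and 12.1, 12.7 and 14.8 CPM, with 2.91 to 3.51 CPM in the untreated 8 h libraries. EdgeR called it down only without replicate 3 (-1.58 ± 0.09 (adjusted p = 1.6e-07)). Among 26 neuron differentiation genes edgeR called 1 up and 0 down with all libraries and 2 up and 2 down without replicate 3, and DESeq2 called 2 up and 1 down with all libraries. Of 19 dorsal neural tube and neural crest genes, edgeR with all libraries called Foxd3 alone, and DESeq2 called 2 up and 2 down, as did edgeR without replicate 3 among 20. Of 13 ventral genes 0 were called by edgeR or DESeq2, with 0 higher and 2 lower at an unadjusted p under 0.05.

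Some genes of the pluripotent state and of the early epiblast fell. Tdh, threonine dehydrogenase of mouse stem cells, was at 187, 180.0 and 304 CPM and then 52.2, 63.8 and 59.2 CPM, a log2 fold change of -1.95 ± 0.22 (adjusted p = 0.004, and -1.65 without replicate 3). Fgf4, an autocrine signal of stem cells, fell from 129, 106 and 153 CPM to 36.6, 47.3 and 45.97 CPM (-1.59 ± 0.16 (adjusted p = 0.0033, and -1.44 without replicate 3)), and Nr0b1 from 62.8, 58.1 and 77.7 CPM to 18.4, 24.5 and 21.8 CPM (-1.63 ± 0.15 (adjusted p = 0.0031, and -1.48 without replicate 3)). Pou5f1 went from 581, 567 and 821 CPM to 291, 317 and 312 CPM and was called with all libraries (-1.11 ± 0.16 (adjusted p = 0.006)), while -0.90 ± 0.05 without replicate 3 missed the fold threshold. For Tdh, Fgf4, Nr0b1 and Pou5f1, RA 8 h replicate 3 was the highest of the 6 libraries. Nanog was at 149, 115 and 162 CPM and 137, 149 and 141 CPM and Esrrb at 97.1, 80.6 and 130.5 CPM and 71.3, 92.8 and 84.4 CPM, with groups that overlapped. Of 23 pluripotency genes 0 rose and 4 fell (median -0.37), and 3 fell and 0 rose without replicate 3 (median -0.17). DESeq2 called 0 up and 4 down.

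Foxd3, a forkhead gene of the epiblast, had the largest fall of the 12 that the rule below names among genes called with and without replicate 3. It was at 4.91, 6.16 and 3.20 CPM in the RA 8 h libraries and 0.521, 0.742 and 0.870 CPM in the RA 18 h libraries, against 43.5 to 45.2 CPM in untreated organoids at 18 h. Its log2 fold change was -2.74 ± 0.32 (adjusted p = 0.0043), and -2.95 ± 0.24 without replicate 3. Sphkap, which binds sphingosine kinase, fell from 1.68, 2.22 and 1.05 CPM to 0.217, 0.247 and 0.391 CPM (-2.53 ± 0.41 (adjusted p = 0.0088, and -2.75 without replicate 3)). Dnmt3b, Pou3f1, a POU factor of the epiblast, and Pim2, a kinase, were called down by edgeR only without replicate 3 (-1.14 ± 0.06, -1.001 ± 0.08 and -1.06 ± 0.07). RA 8 h replicates 1, 2 and 3 were at 548, 529 and 293 CPM for Dnmt3b, 103, 121 and 38.9 CPM for Pou3f1 and 169.9, 185 and 35.7 CPM for Pim2, with replicate 3 the lowest each time. The RA 18 h libraries were at 52.3, 57.1 and 58.3 CPM for Pou3f1 and 79.7, 94.2 and 81.1 CPM for Pim2. For these 2 genes replicate 3 lay below each RA 18 h library. With all libraries Dnmt3b, Pou3f1 and Pim2 had -0.91 ± 0.21, -0.66 ± 0.35 and -0.62 ± 0.51 (adjusted p = 0.025, 0.22 and 0.41). Of 19 primed epiblast genes 0 rose and 3 fell (median -0.62), and 0 rose and 8 fell without replicate 3 (median -0.60). DESeq2 called 0 up and 4 down with all libraries. In untreated organoids 0 of the 19 were called by edgeR, with 9 higher and 4 lower at an unadjusted p under 0.05, and the median was 0.12.

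Among enzymes that write and remove DNA methylation, Dnmt3a and Tet1 fell. Dnmt3a, which sets new methylation, fell from 755, 729 and 1035 CPM to 333, 386 and 374 CPM (-1.22 ± 0.15 (adjusted p = 0.0049, and -1.02 without replicate 3)). Tet1, which oxidises methylated cytosine, was at 503, 612 and 814 CPM and 328, 255 and 269 CPM and was called with all libraries (-1.19 ± 0.20 (adjusted p = 0.0095)) but not without replicate 3 (-0.97 ± 0.11). Dnmt3b was at 226, 250.5 and 253 CPM at RA 18 h and 1803 to 2035 CPM in untreated organoids at 18 h. Of 8 genes in this list 0 rose and 2 fell by edgeR with or without replicate 3, and by DESeq2 with all libraries. The median was -0.58 with and without replicate 3. Of 18 germline genes that methylation is known to silence, 0 were called by edgeR or DESeq2. Over all genes edgeR called 1.8% up and 0.335% down, so that 0 calls among 18 genes says little about them. At an unadjusted p under 0.05, 3 were higher and 1 lower. Their median was 0.29 with RA, 0.25 with RA without replicate 3, and -0.26 over the 17 tested in untreated organoids.

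Enpp2 encodes autotaxin, the enzyme that makes lysophosphatidic acid (LPA). It was at 9.89, 8.47 and 1.71 CPM in the RA 8 h libraries and 0.825, 0.618 and 0.304 CPM in the RA 18 h libraries, against 51.4, 46.7 and 47.5 CPM and 25.9, 26.2 and 29.4 CPM in untreated organoids. The RA groups did not overlap, and RA 8 h replicate 3 lay nearest to the RA 18 h libraries. The log2 fold change of -3.52 ± 0.69 (adjusted p = 0.015) missed the threshold in edgeR with all libraries and passed it without replicate 3, at -3.96 ± 0.25 (adjusted p = 4.2e-07), and DESeq2 called Enpp2 down with all libraries. Of 14 genes for LPA synthesis, LPA receptors and lipid phosphatases, edgeR called 1 up and 0 down with all libraries, and DESeq2 2 up and 1 down. Without replicate 3 edgeR called 2 of 15 up and 1 down. The gene that edgeR called with all libraries was Plppr3, a phosphatase-related membrane protein of neurons, at 1.34, 1.72 and 0.995 CPM and 4.39, 3.83 and 5.74 CPM, and its position overlaps genes on the other strand.

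Some secreted signals and antagonists rose. Sfrp5, a secreted antagonist of Wnt, was at 3.61, 2.81 and 0.332 CPM and then 28.2, 27.2 and 30.7 CPM, a log2 fold change of 3.63 ± 0.53 (adjusted p = 0.0067, and 3.16 without replicate 3), and at 0.614 to 0.701 CPM in untreated organoids at 18 h. Nkd1, a feedback inhibitor of Wnt, and Fzd2, a Wnt receptor, rose by 1.37 ± 0.18 and 1.12 ± 0.16 on the log2 scale, or 1.24 ± 0.15 and 0.95 ± 0.07 without replicate 3, where Fzd2 missed the fold threshold. Bmp7 rose from 2.56, 2.27 and 1.33 CPM to 9.29, 8.78 and 7.18 CPM (2.02 ± 0.25 (adjusted p = 0.0048, and 1.80 without replicate 3)) and Bmp2 from 0.335, 0.136 and 0 CPM to 3.17, 1.94 and 2.52 CPM (3.87 ± 0.61 (adjusted p = 0.0084, and 3.39 without replicate 3)). Lefty1, an antagonist of Nodal, rose from 8.47, 8.52 and 8.67 CPM to 32.3, 40.2 and 37.2 CPM (2.09 ± 0.11 (adjusted p = 5.5e-04, and 2.11 without replicate 3)), and it rose without RA too (1.16 ± 0.12 (adjusted p = 3.2e-05)). Nodal itself was at 87.2, 73.5 and 74.6 CPM and 46.2, 49.4 and 49.8 CPM (-0.70 ± 0.08, and -0.73 without replicate 3). Of 29 Wnt genes 3 rose and 0 fell (median 0.53), and of 22 Nodal and BMP genes 3 rose and 0 fell (median -0.060). Without replicate 3 these were 4 and 0 (median 0.29), and 5 and 0 (median -0.091). DESeq2 called 5 and 0, and 4 and 0, with all libraries. With all libraries edgeR called Fgf4 alone of 25 FGF genes and Hes1 alone of 19 Notch genes, and DESeq2 called 1 FGF gene up and 1 down and 2 Notch genes up. Without replicate 3 edgeR called 0 FGF genes up and 1 down, and 3 Notch genes up.

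Some guidance and epithelial genes also rose. Plxna2, a receptor for semaphorins, was at 8.60, 7.43 and 7.57 CPM and then 46.5, 40.6 and 40.1 CPM, with a log2 fold change of 2.42 ± 0.11 (adjusted p = 4.8e-04, and 2.41 without replicate 3), and replicate 3 was within the range of its replicates. Efnb1, an ephrin, rose from 11.8, 11.8 and 7.29 CPM to 35.99, 36.1 and 38.9 CPM (1.83 ± 0.17 (adjusted p = 0.0031, and 1.65 without replicate 3)) and Slit1, a repellent of axons, from 0.713, 1.18 and 1.11 CPM to 3.08, 3.92 and 4.57 CPM (1.94 ± 0.28 (adjusted p = 0.0065, and 2.03 without replicate 3)). Crb2, a polarity protein of the apical membrane, rose from 2.52, 3.31 and 1.66 CPM to 9.55, 9.73 and 9.61 CPM (1.93 ± 0.23 (adjusted p = 0.0046, and 1.73 without replicate 3)), and it overlaps Dennd1a on the other strand. Myl9, a light chain of non-muscle and smooth muscle myosin, rose from 0.922, 0.770 and 0.552 CPM to 3.60, 3.96 and 3.22 CPM (2.23 ± 0.25 (adjusted p = 0.0038, and 2.08 without replicate 3)). Cdh6, a cadherin, rose from 1.34, 1.72 and 1.16 CPM to 7.03, 6.35 and 5.39 CPM and the keratin Krt8 from 10.6, 10.4 and 5.64 CPM to 21.2, 23.05 and 21.8 CPM. Cdh1, or E-cadherin, was at 654, 555 and 729 CPM and 355, 441 and 417 CPM, and -0.69 ± 0.13 (adjusted p = 0.013) passed neither threshold. Without replicate 3, -0.58 ± 0.08 (adjusted p = 2.0e-04) missed the fold threshold alone. Cxcl12, a chemokine, was at 118, 119.9 and 66.3 CPM and 42.9, 45.6 and 43.6 CPM, and edgeR called it down only without replicate 3 (-1.43 ± 0.06 (adjusted p = 1.6e-08)), while DESeq2 called it down with all libraries. With its 2 receptors it made a list of 3 genes with 0 calls by edgeR, 0 higher and 1 lower at an unadjusted p under 0.05 and 1 called down by DESeq2. Counts with all libraries were 3 of 38 for guidance genes (median 0.36), 2 of 31 for apical polarity and actomyosin genes (median 0.29) and 2 of 20 for cadherins, claudins and keratins (median 0.63), all up, with 0 down. Without replicate 3 these lists had 4, 3 and 3 up and 0, 0 and 1 down, with medians of 0.41, 0.20 and 0.29. DESeq2 called 5, 3 and 3 up and 0, 0 and 1 down with all libraries.

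Some genes of glucose uptake and lactate export rose, with changes near the fold threshold. Slc2a1 and Slc2a3, glucose transporters, rose by 1.20 ± 0.17 and 1.22 ± 0.09 on the log2 scale, or 1.02 ± 0.06 and 1.21 ± 0.08 without replicate 3, and were called in both fits. Pfkfb3, an activator of glycolysis, and Slc16a3, a lactate exporter, had 1.19 ± 0.20 and 1.11 ± 0.16, and 0.99 ± 0.09 and 0.97 ± 0.09 without replicate 3, which missed the fold threshold. Over the same 10 h without RA these 4 genes had changes of 0.63 ± 0.06, 0.75 ± 0.07, 0.63 ± 0.06 and 0.69 ± 0.06. Of 24 glycolysis and hypoxia genes, 4 rose and 0 fell (median 0.52), and 2 rose and 0 fell without replicate 3 (median 0.37). In the untreated organoids 2 rose and 0 fell (median 0.53). DESeq2 called 5 up and 0 down with RA. Cell cycle genes (35 tested, median -0.24) and cholesterol and fatty acid synthesis genes (28 tested, median 0.041) had 0 calls by edgeR with and without replicate 3, and 0 by DESeq2. Without replicate 3 their medians were -0.13 and 0.13. At an unadjusted p under 0.05, 2 cell cycle genes were higher and 15 lower, and 6 genes of lipid synthesis were higher and 3 lower. Over all 16442 genes tested, 3234 were higher and 2881 lower at this p.

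**Figure D3:**
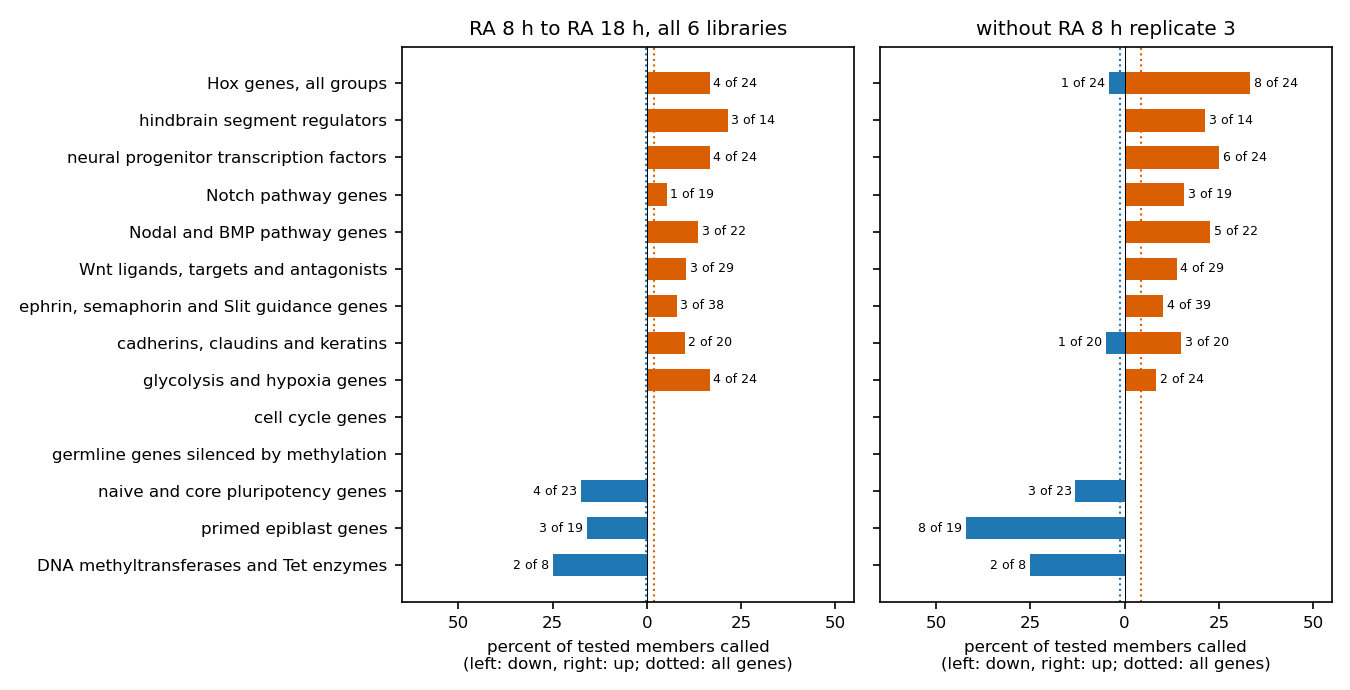
Percent of the tested members of 14 gene lists called up (orange, right) and down (blue, left) from RA 8 h to RA 18 h, with all 6 libraries (left panel) and without RA 8 h replicate 3 (right panel). Dotted lines give the share over all genes, 1.8% up and 0.335% down on the left and 4.29% and 1.26% on the right. Primed epiblast genes go from 3 of 19 to 8 of 19 called down when the library is left out.

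Markers of other cell types were checked for the same libraries. Foxc1, a forkhead gene of mesoderm, rose from 1.59, 1.50 and 0.663 CPM to 8.94, 9.89 and 9.70 CPM (2.89 ± 0.28 (adjusted p = 0.0031, and 2.62 without replicate 3)), and it was the only 1 of 13 tested mesoderm markers called by edgeR or DESeq2 with all libraries. Without replicate 3, 2 rose and 1 fell. Meox1, a homeobox gene of somites, was at 5.41, 5.76 and 0.332 CPM and 29.4, 31.7 and 31.5 CPM and was called by edgeR only without replicate 3 (2.47 ± 0.09). The mesoderm gene T was at 1.51, 2.08 and 0.442 CPM and 0.347, 0.618 and 0.435 CPM, and untreated organoids had 5.71, 6.91 and 6.06 CPM and then 2.66, 1.40 and 2.67 CPM. Of 12 endoderm markers 0 were called by edgeR (median 0.87), with 3 higher and 0 lower at an unadjusted p under 0.05 and 2 called up by DESeq2. Without replicate 3 the median was 0.53. In that fit edgeR called Sox17 alone (1.67 ± 0.17), at 2.81, 2.49 and 0.387 CPM and 8.42, 7.34 and 9.48 CPM. Of 13 trophoblast and surface ectoderm markers only Krt8 was called by edgeR with all libraries (median 0.71), and 1 rose and 0 fell without replicate 3 (median 0.41). Of 13 tested early response and dissociation genes 0 were called by edgeR, with 3 higher and 2 lower at an unadjusted p under 0.05 and 1 called up by DESeq2. The summed level of the mesoderm markers was 65.7 to 75.1 CPM at RA 8 h and 85.3 to 92.6 CPM at RA 18 h. Within this sum the mean of Meox1 went from 3.83 to 30.9 CPM and that of Foxc1 from 1.25 to 9.51 CPM. The sum alone therefore does not show a rise across these markers. Of the 13 tested, 9 had a positive change (median 0.56), and 8 without replicate 3 (median 0.19). In untreated organoids 6 of 11 had a positive change (median 0.0027). The endoderm markers summed to 30.2 to 51.4 CPM and then 76.4 to 79.6 CPM. In untreated organoids the mesoderm sum was 54.2 to 65.7 CPM and then 56.02 to 63.6 CPM, and the endoderm sum 23.1 to 23.7 CPM and then 28.3 to 29.4 CPM. Trophoblast and surface ectoderm markers summed to 76.7 to 180.0 CPM and then 174 to 194 CPM, with RA 8 h replicate 3 the lowest. Neuroepithelium markers summed to 391 to 418 CPM and then 566 to 587 CPM, and 2 of these 10, Sox1 and Nes, rose. Of all these markers, only Ttr had 0 counts in each library of both RA groups. The part of these other cell types in the results was not tested.

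**Figure D4:**
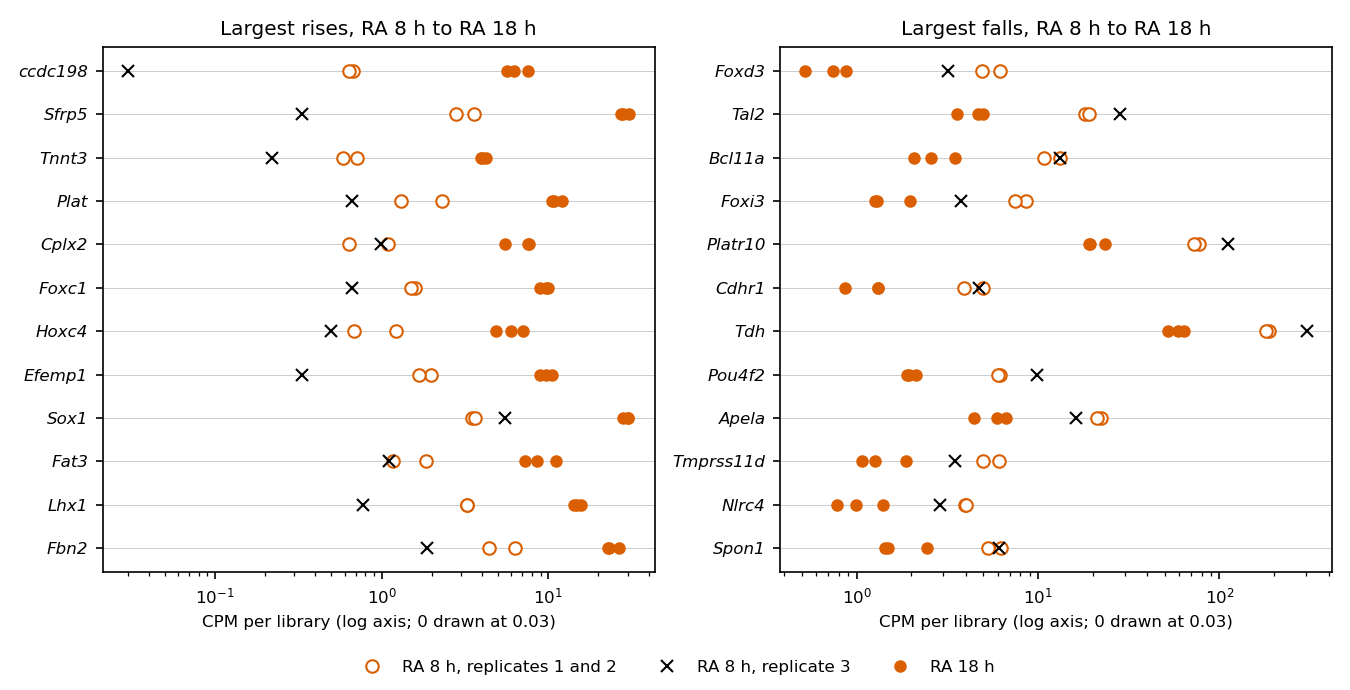
Level of each library in CPM on a log axis for the 12 largest rises (left) and 12 largest falls (right) named by the rule, with open circles for RA 8 h replicates 1 and 2, crosses for RA 8 h replicate 3 and filled circles for RA 18 h. The RA 18 h libraries lie apart from all RA 8 h libraries for each of the 24 genes, as the rule requires, and replicate 3 of Sfrp5 is at 0.332 CPM against 3.61 and 2.81 CPM.

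The 12 largest rises and 12 largest falls were named among genes called with and without replicate 3 whose 3 and 3 libraries do not overlap, with a mean of at least 2 CPM and a symbol that is not a predicted gene. Genes with larger changes at lower levels, such as Hoxd3, Hoxc5, Bmp2 and Sphkap, are outside it. In addition to Sfrp5, Foxc1, Hoxc4, Sox1 and Lhx1, the rises were ccdc198 (3.81 ± 0.59), Tnnt3 (2.94 ± 0.34), Plat (2.93 ± 0.36), Cplx2 (2.91 ± 0.27), Efemp1 (2.82 ± 0.45), Fat3 (2.68 ± 0.27) and Fbn2 (2.51 ± 0.35). Without replicate 3 these 7 values were 3.31, 2.63, 2.63, 2.98, 2.40, 2.57 and 2.18. Plat encodes tissue plasminogen activator, Cplx2 a protein of synaptic vesicle release, and Efemp1 and Fbn2 proteins of the extracellular matrix. Plat was at 1.30, 2.31 and 0.663 CPM and then 10.8, 12.04 and 10.5 CPM, and Fbn2 at 6.29, 4.40 and 1.88 CPM and 22.9, 23.05 and 26.6 CPM. The gene ccdc198 was listed at 0.671, 0.634 and 0 CPM and then 7.55, 5.65 and 6.26 CPM, and close to 0 in all untreated libraries. The falls, in addition to Foxd3 and Tdh, were Tal2 (-2.31 ± 0.23), Bcl11a (-2.19 ± 0.22), Foxi3 (-2.12 ± 0.35), Platr10 (-2.09 ± 0.19), Cdhr1 (-1.97 ± 0.23), Pou4f2 (-1.89 ± 0.25), Apela (-1.81 ± 0.19), Tmprss11d (-1.80 ± 0.30), Nlrc4 (-1.79 ± 0.28) and Spon1 (-1.73 ± 0.25). Without it these 10 were -2.06, -2.13, -2.39, -1.86, -1.92, -1.61, -1.92, -1.97, -1.92 and -1.69. Tal2, a helix-loop-helix gene of midbrain neurons, was at 18.1, 18.99 and 28.5 CPM at RA 8 h, 4.69, 3.59 and 5.00 CPM at RA 18 h and 7.02 to 7.99 CPM in untreated organoids at 8 h. Apela, a peptide hormone of stem cells, was at 22.2, 21.1 and 16.2 CPM and then 6.64, 5.98 and 4.44 CPM. Tal2 at RA 8 h was thus above the untreated 8 h level in all 3 libraries. At RA 18 h its values overlapped those of untreated organoids at 18 h, which were 5.19, 3.92 and 4.99 CPM.

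Much of the change with RA had the same sign without RA, in libraries that the comparison does not share. Over 15521 genes tested in both, the change from 8 h to 18 h with RA and without RA had a Pearson correlation of 0.550 across genes and a Spearman correlation of 0.562, and a Pearson correlation of 0.618 without RA 8 h replicate 3. Genes are not independent replicates, and these values are a description. In the untreated organoids 87 of 15823 genes rose (0.55%) and 38 fell (0.24%). Leaving out untreated 18 h replicate 3 left 52 rises, and leaving out untreated 8 h replicate 2 or 3 or untreated 18 h replicate 2 gave 22, 21 and 59 falls. Of the 296 genes called up with RA, 268 were tested without RA, 257 of these had a positive change, and 34 were called up. Those 34 are 11.5% of the genes called up with RA and 39.1% of the genes called up without. The median untreated log2 fold change of the 268 genes was 0.66, beside -0.0013 over all 15521 genes. Of the 55 genes called down with RA, 4 had a positive change without RA, the median was -0.44 and 0 were called in either direction by edgeR in the untreated organoids.

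**Figure D5:**
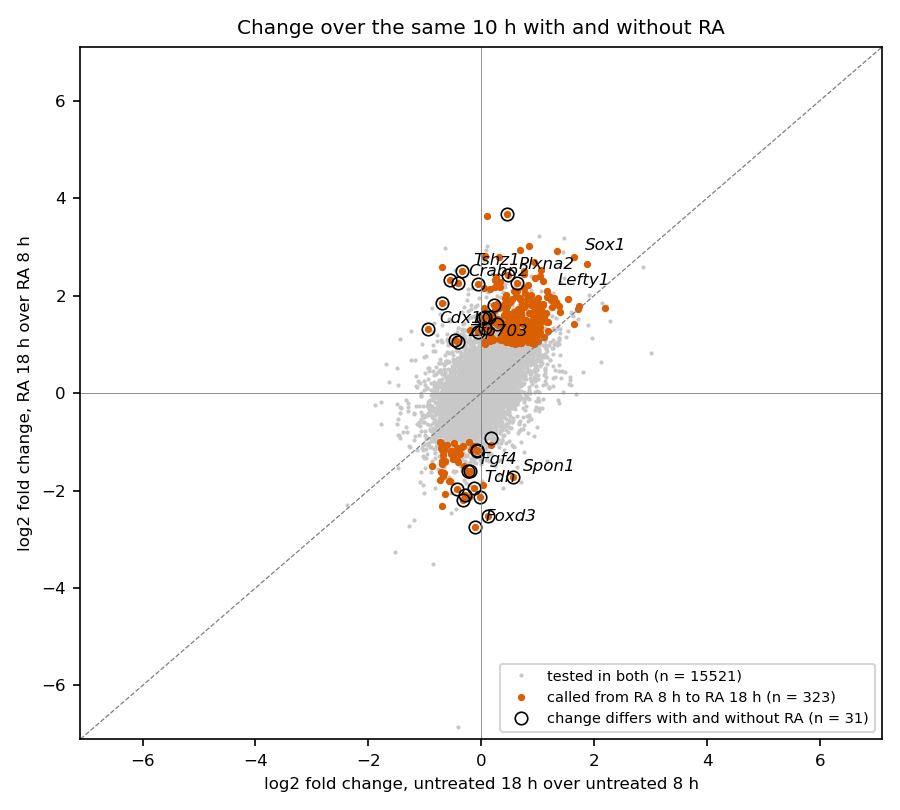
Log2 fold change from 8 h to 18 h with RA (vertical) against the same without RA (horizontal) for 15521 genes, with genes called from RA 8 h to RA 18 h in orange (323 shown) and the 31 genes whose change differed between RA and untreated circled. The dashed line marks equal change. Tshz1, Crabp2 and Cdx1 rise with RA and lie left of 0 on the horizontal axis, and Foxd3 and Tdh lie near 0 on it and below -1.9 on the vertical axis.

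The difference of the changes was the interaction term of a fit to the 12 libraries. The change was higher with RA at 18 of 17009 genes (0.106%) and lower at 13 (0.0764%). Without RA 8 h replicate 3 these were 77 of 17443 (0.441%) and 74 (0.424%). Leaving out RA 8 h replicate 1 or 2 gave 22 and 13 genes with a higher and 14 and 15 with a lower change, and leaving out any 1 of the 9 libraries of the other 3 groups gave 4 to 6 with a higher and 6 to 11 with a lower change. The 18 genes were Crabp2, Bicc1, Mmp25, Tnfrsf21, Cyp1b1, Cdx1, Plxna2, Car3, Spp1, Pitpnm3, Tshz1, Pgbd5, Flrt3, Mest, Myl9, Ptprz1, Qrich2 and Zfp703. The 13 genes were Bcl11a, Pdzd4, Ndrg2, Cdhr1, Tdh, Sphkap, Hsd17b11, Pcdh8, Spon1, Fgf4, Foxd3, Gm12688 and Platr10. Both lists are complete, and those of their genes that the naming rule does not reach are named after their values were seen. Tshz1, a zinc finger gene of the trunk, was at 10.4, 11.2 and 6.02 CPM at RA 8 h and 56.2, 49.4 and 52.8 CPM at RA 18 h, and at 1.10, 1.29 and 1.15 CPM and 0.993, 1.28 and 0.667 CPM without RA. The difference of its changes was 2.84 ± 0.38 (adjusted p = 0.0032), and 2.63 ± 0.28 (adjusted p = 1.1e-05) without replicate 3. Plxna2 had 1.94 ± 0.15 (adjusted p = 1.3e-04, and 1.92 without replicate 3), with 4.88, 4.87 and 4.04 CPM and 6.86, 6.27 and 6.30 CPM in the untreated libraries. Crabp2 went from 35.7, 33.2 and 46.05 CPM to 27.9, 29.9 and 29.5 CPM without RA, and its difference was 2.67 ± 0.39 (adjusted p = 0.0058), or 2.32 ± 0.13 without replicate 3. Cdx1 had a difference of 2.24 ± 0.30 (adjusted p = 0.0032, and 2.13 without replicate 3), from 1.70, 1.74 and 1.06 CPM and 1.04, 0.619 and 0.747 CPM in untreated organoids.

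Pgbd5, a gene derived from a transposase, rose from 5.49, 5.44 and 4.64 CPM to 24.8, 24.2 and 26.6 CPM and differed by 1.62 ± 0.19 (adjusted p = 0.0021, and 1.55 without replicate 3). Bicc1, an RNA-binding protein, rose from 2.35, 2.99 and 3.48 CPM to 10.4, 10.4 and 9.92 CPM and differed by 1.57 ± 0.23 (adjusted p = 0.0065, and 1.71 without replicate 3). On the lower side, Foxd3 went from 46.8, 43.7 and 51.2 CPM to 45.2, 43.5 and 45.2 CPM without RA and its difference was -2.66 ± 0.28 (adjusted p = 0.0012, and -2.86 without replicate 3). Spon1, an extracellular matrix protein of the floor plate, was at 5.32, 6.25 and 6.08 CPM and 2.43, 1.48 and 1.44 CPM with RA and at 7.19, 6.41 and 5.29 CPM and 10.9, 8.33 and 9.10 CPM without, a difference of -2.30 ± 0.29 (adjusted p = 0.0023, and -2.27 without replicate 3). It fell with RA and was higher in each untreated 18 h library than in each untreated 8 h library. Platr10, a noncoding RNA of pluripotent cells, fell from 76.9, 72.6 and 112 CPM to 19.103, 23.4 and 19.2 CPM (-1.82 ± 0.20 (adjusted p = 0.0014, and -1.59 without replicate 3) for the difference), and Bcl11a from 10.8, 13.1 and 13.2 CPM to 2.08, 3.50 and 2.57 CPM (-1.87 ± 0.20 (adjusted p = 0.0014, and -1.82 without replicate 3)). Sox1, Hoxc4, Sfrp5 and Lhx1, with large rises, were not called for a difference with all libraries (1.14 ± 0.29, 1.80 ± 0.96, 3.51 ± 0.79 and 3.27 ± 0.72). Without replicate 3 these were 1.38 ± 0.22, 1.58 ± 0.93, 3.04 ± 0.32 and 2.89 ± 0.42, and Sox1, Sfrp5 and Lhx1 were called.

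Levels at 30 h are given beside these without a test. With RA, Crabp2 had a mean of 516 ± 15.05 CPM (SD, n = 3), Plxna2 129.9 ± 41.8 CPM, Tshz1 171 ± 59.8 CPM and Sox1 204 ± 84.9 CPM at 30 h. Tdh had 18.5 ± 12.2 CPM, Fgf4 12.2 ± 5.63 CPM and Foxd3 0.370 ± 0.424 CPM. Some genes that rose to RA 18 h had lower mean levels at RA 30 h, among them Foxc1 at 2.76 ± 3.45 CPM, Cdx1 at 9.92 ± 4.09 CPM and Lhx1 at 5.72 ± 1.82 CPM. Cyp26a1 was at 17.8, 55.8 and 17.9 CPM in the RA 30 h libraries, where the 3 libraries differed among themselves. The 4 Y chromosome genes averaged 1.22, 29.1 and 2.05 CPM in those libraries and 3.29, 2.58 and 3.20 CPM in the untreated 30 h libraries. They averaged 50.3 to 59.04 CPM in the untreated 18 h libraries and 3.65 CPM in RA 8 h replicate 3. The part of these differences in the 30 h levels was not tested.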

How the data were processed

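RNA was sequenced from poly(A) libraries made with a directional kit, with 3 biological replicates for each condition. Per the labels, the authors trimmed reads with Trim Galore 0.5.0, used Bowtie2 2.3.4.1 and deposited raw counts per gene on GRCm38 from featureCounts (Subread 1.6.2), without normalization or pooling of replicates, and the study's methods name STAR as the aligner. Columns were matched to samples by the library number in the sample titles. Positions came from GENCODE M21 for 54495 of 54532 genes.

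From the deposited counts, the libraries of each comparison alone were fitted with edgeR 4.0.16 in R 4.3.3 (TMM, filterByExpr with a minimum count of 10 and a minimum total of 15, glmQLFit, glmQLFTest). RA 18 h was compared with RA 8 h (3 against 3), untreated 18 h with untreated 8 h, and the difference of the changes was the interaction term of a fit to 12 libraries. A call needed a log2 value beyond 1 in either direction and, after Benjamini-Hochberg adjustment, a p under 0.01, the thresholds of the study. The ± beside a log2 value is its SE, the size of the value divided by the square root of the F statistic, and p-values are two-sided. The CPM of a library was scaled by TMM over all 45 libraries. The script was tested on simulated data.

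The members and lists were chosen with earlier results of these data known, so the lists are described by counts and medians and not tested. Large changes were named by a rule: the 12 largest rises and falls called with and without RA 8 h replicate 3, with libraries that do not overlap, a mean of at least 2 CPM and a symbol that is not a predicted gene, then the 6 highest and 6 lowest called differences, members of the lists, and Enpp2. Aldoa, whose symbol names more than 1 row, and Pals1, which was not matched, were left out of the lists. Some genes are not reported here. Between replicates the mean chi-square per gene was 1.945 or more, above sampling noise, so that each library counts as 1 replicate.

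Alternatives were RLE size factors, library totals, a minimum of 10 counts in each library or no minimum, DESeq2 1.42.0, 1 edgeR fit of all 45 libraries, the replicate number as a block, an adjusted p under 0.05 with no minimum fold, glmTreat against a log2 fold change of 1, each library left out in turn, and the half-site AGGTCA alone. A limma 3.58.1 voom fit with sample quality weights was added after the data were seen. Depths of 19260416 to 24357498 counts in the 6 RA libraries bound counting error only, because reads were not tagged by molecule and are not independent.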

Additional observations from a re-analysis of the deposited data

Results flagged for a closer look

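The change from 8 h to 18 h differed between RA-treated and untreated organoids by the interaction term of edgeR over 12 libraries, higher with RA at 18 genes and lower at 13. On the log2 scale the difference was 3.20 for Pitpnm3, 2.86 for Qrich2, 2.84 for Tshz1, 2.67 for Crabp2, 2.53 for Cyp1b1, 2.28 for Myl9, 2.24 for Cdx1, 1.94 for Plxna2, 1.62 for Pgbd5, 1.57 for Bicc1, 1.54 for Ptprz1, 1.50 for Mest, 1.49 for Flrt3, 1.43 for Zfp703, 1.40 for Tnfrsf21, 1.31 for Spp1, 1.25 for Car3 and 1.13 for Mmp25. It was -2.67 for Sphkap, -2.66 for Foxd3, -2.30 for Spon1, -2.13 for Gm12688, -1.87 for Bcl11a, -1.83 for Tdh, -1.82 for Platr10, -1.55 for Cdhr1, -1.40 for Fgf4, -1.37 for Hsd17b11, -1.11 for Pcdh8, -1.10 for Ndrg2 and -1.09 for Pdzd4. Of these 31 genes, 30 were also called without RA 8 h replicate 3, the exception being Mmp25. Pitpnm3, Qrich2, Cyp1b1 and Myl9 had a mean under 2 CPM over the 12 libraries, so that the naming rule does not reach them. The check for 1 library far from the rest of its group needs 4 libraries and was not run.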

How the results depend on the processing

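Counts of called genes moved by over 1.5 times under many alternatives, and Nanog, Meis2 and Hoxa9 were the named genes that changed sign. From RA 8 h to RA 18 h, DESeq2 called 690 rises and 138 falls, 1 edgeR model over all 45 libraries 1026 and 169, testing every gene with any count 540 and 94, voom with sample quality weights (added after seeing the data) 797 and 215, an adjusted p under 0.05 with no minimum fold 1928 and 1539, glmTreat 2 and 0 (84 falls at an unadjusted p under 0.05), and library totals 33 falls. In untreated organoids an adjusted p under 0.05 with no minimum fold gave 1907 rises and 1738 falls, no filter 146 and 63, glmTreat 0 and 0 (57 and 30 at an unadjusted p under 0.05), and DESeq2 and the fit of all libraries 25 and 13 falls. For the difference of the changes, an adjusted p under 0.05 with no minimum size gave 109 genes higher and 87 lower, no filter 109 and 52, DESeq2 84 and 42, the fit of all libraries 86 and 24, voom with sample quality weights 103 and 71, and glmTreat 0 and 0 (186 and 62 at an unadjusted p under 0.05). The cause was not tested. Leaving out 1 library in turn gave 0 to 727 rises and 0 to 213 falls with RA, 52 to 106 and 21 to 59 without RA, and 4 to 77 genes higher and 6 to 74 lower for the difference.

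With the replicate number as a block, 0 genes were called in either direction from RA 8 h to RA 18 h, with 2771 higher and 2063 lower at an unadjusted p under 0.05, and 5 genes had a higher change with RA. Deviations of libraries with the same number had correlations of -0.23, -0.082 and -0.054 in the RA groups and -0.057, -0.13 and 0.019 in the untreated groups, and the numbers were not taken to pair the libraries. Library totals moved the median log2 fold change over the tested genes from -0.0005 to 0.114.

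Nanog changed sign at 0.12 with library totals, 0.016 with at least 10 counts in every library, 0.0067 with the replicate block and 0.11 with quality weights, and lay between -0.15 and 0.11 when 1 library was left out. Meis2 changed sign with quality weights (-0.039). With 1 library left out it lay between -0.070 and 0.34, and Hoxa9 between -0.14 and 0.86. The half-site AGGTCA alone left 0.0578% of promoters with a repeat. Of the comparisons of a fold change under another setting with all libraries, 880 kept their side of the threshold, 165 lost the call and 74 gained it. With 1 library left out, 357 kept their side, 376 lost the call and 22 gained it. For the called differences of the changes, 217 kept the call and 59 lost it with all libraries. These were 183 and 189 with 1 library left out. Levels near 0 CPM, such as Hoxd3 at RA 8 h, rest on few counts.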
